A study of Mus musculus with 23 samples.

Results

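The collagen genes described here are all genes of the quadriceps and epididymal fat count tables whose symbol has the form of a collagen chain name, Col followed by a type number, the letter a and a chain number. The quadriceps table held 38 of them among 12831 genes and the fat table held 39 among 16962, so that 36 were in both tables and 41 in either. Col9a1 and Col19a1 were in the quadriceps table alone, and Col2a1, Col6a4 and Col9a3 were in the fat table alone. The members were sorted into fibrillar collagens (10 in quadriceps and 11 in fat), basement membrane collagens (8 in each) and other types (20 in each), the last made up of type VI, fibril-associated, transmembrane, and short-chain, anchoring and remaining chains. RNA was sequenced from male C57BL/6 mice (C57BL6/J in the design text) that had surgery at 8 weeks of age, either a sham operation without tumor cells (no tumor) or injection of tumor cells into the pancreas. The cells were KPC, a pancreatic cancer line from a genetically engineered mouse, or KPC IL6KO, the same line with Il6, the gene of the cytokine interleukin-6, edited by CRISPR, where the KPC control cells had received a plasmid with a null guide RNA. Each of the 2 was a single clone, so the clone and the edit cannot be told apart. Mice were killed when the KPC group was visibly wasted. Quadriceps came from 3 mice with no tumor and from 4 mice of each tumor group, and fat from 4 mice of every group in a separate set of animals, with the tissues isolated and sequenced at different times.

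Collagens are proteins of the extracellular matrix built from 3 chains wound into a triple helix. Fibrillar collagens, chiefly types I, III and V, form the rope-like fibrils of tendon and of the connective tissue that wraps muscle bundles and fibers, and they are made mainly by fibroblasts. Type IV collagen forms the network of the basement membrane around each muscle fiber, adipocyte and capillary, and type VI collagen forms beaded filaments that join basement membranes to the fibrils outside them. Excess collagen is the hallmark of fibrosis.

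The basement membrane chains Col4a1 and Col4a2 are transcribed in opposite directions from adjoining starts, and their levels were compared below with those of the fibrillar chains Col1a2 and Col3a1, so the promoter windows of these 4 genes are shown. Each window runs from 250 bases before to 50 bases after the RefSeq start on GRCm38.p6, 5′ to 3′ on the strand of the gene. Capitals mark matches, on either strand, to GGGCGG (the GC box), CCAAT (the CCAAT box) and TATAAA (the TATA box). Col4a1 is at chr8:11312777-11313076 on the minus strand, Col4a2 at chr8:11312555-11312854 on the plus strand, Col1a2 at chr6:4505368-4505667 on the plus strand and Col3a1 at chr1:45311288-45311587 on the plus strand. Col1a2 and Col3a1 were picked for display after their values had been seen.
Col4a1: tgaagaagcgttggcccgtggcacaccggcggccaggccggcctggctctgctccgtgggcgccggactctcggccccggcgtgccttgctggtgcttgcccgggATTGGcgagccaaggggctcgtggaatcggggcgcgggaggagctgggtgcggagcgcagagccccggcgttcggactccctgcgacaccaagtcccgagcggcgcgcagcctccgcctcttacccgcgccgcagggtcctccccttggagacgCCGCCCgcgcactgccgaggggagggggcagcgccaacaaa
Col4a2: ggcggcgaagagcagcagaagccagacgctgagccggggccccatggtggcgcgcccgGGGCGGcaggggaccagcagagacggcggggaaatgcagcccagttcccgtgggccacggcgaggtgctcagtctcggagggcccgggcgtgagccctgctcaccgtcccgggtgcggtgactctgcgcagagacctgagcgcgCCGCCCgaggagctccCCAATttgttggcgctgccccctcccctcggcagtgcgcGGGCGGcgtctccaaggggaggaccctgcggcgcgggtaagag
Col1a2: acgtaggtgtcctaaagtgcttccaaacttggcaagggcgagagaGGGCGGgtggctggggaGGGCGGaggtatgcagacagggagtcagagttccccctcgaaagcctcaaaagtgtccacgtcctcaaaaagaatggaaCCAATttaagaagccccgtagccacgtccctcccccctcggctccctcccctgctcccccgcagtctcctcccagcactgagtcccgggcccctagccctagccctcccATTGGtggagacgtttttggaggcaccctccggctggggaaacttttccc
Col3a1: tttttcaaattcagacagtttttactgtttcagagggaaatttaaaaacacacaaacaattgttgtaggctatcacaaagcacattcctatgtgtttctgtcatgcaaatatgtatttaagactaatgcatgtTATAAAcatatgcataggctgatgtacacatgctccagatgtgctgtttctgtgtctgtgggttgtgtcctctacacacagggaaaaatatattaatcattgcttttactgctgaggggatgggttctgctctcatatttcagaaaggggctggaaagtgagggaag
The transcribed parts of Col4a1 and Col4a2 overlapped by 22 bases in this annotation and their windows by 78 bases. GC content was 74% for Col4a1, 73.7% for Col4a2, 61% for Col1a2 and 37.7% for Col3a1. The Col4a1 window held 1 match to GGGCGG, the Col4a2 window 3 and the Col1a2 window 2, whereas the Col3a1 window held none, which says only that these letters are not in it. The Col4a1 match lies in the bases shared by both windows. It is the same site as the Col4a2 match that starts at position 8 after its start, read on the other strand. A match to CCAAT was found once in each type IV window and at 2 places in that of Col1a2, and TATAAA was found in the Col3a1 window alone of the 4. Of all 32851 promoter entries in the RefSeq table, 35.7% held GGGCGG, 37.4% CCAAT and 13.6% TATAAA. Of the 35 entries of collagen genes, which belonged to 32 of the 41 members, 60% held GGGCGG, 34.3% CCAAT and 11.4% TATAAA. Col4a3 and Col4a4 also start head to head, with 71 bases between them, as do Col4a5 and Col4a6, with 1308 bases between them.

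Total counts ran from 19259763 to 74907810 per quadriceps library and from 26306377 to 56308545 per fat library, and levels are given as CPM, read counts divided by library size and scaled by the TMM method. Genes of skeletal muscle fibers took 12.6% to 17.6% of the counts in the quadriceps groups on average. In quadriceps, KPC IL6KO replicates 3 and 4 stood below replicates 1 and 2 for most fibrillar and type VI chains. In fat, the 6 adipocyte markers summed to 1027 to 17383 CPM, and genes of the epididymis, the organ the pad lies against, were present at very different levels. The epididymal gene Gpx5 was above 1000 CPM in no tumor pads 5 and 7, all 4 KPC pads and KPC IL6KO pad 6, and below 100 CPM in the other 5 pads. The tests in fat, and the test between the tissues, were therefore also run with an epididymis covariate. The gene edited in the KPC IL6KO cells cannot be checked here, since the libraries are of host tissue.

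The first comparison asked how collagen transcripts in quadriceps differed between mice with KPC tumors and mice with no tumor. Fibrillar and type VI chains were lower by 1.33 to 5.56 on the log2 scale, the ubiquitous basement membrane chains Col4a1 and Col4a2 were lower by less than 1.5-fold, and of the 38 genes only Col7a1 and Col19a1 were higher. By edgeR's quasi-likelihood test across the whole table, with a call at a Benjamini-Hochberg adjusted p (FDR) of at most 0.05 and a change of at least 1.5-fold, 29 of the 38 members fell and 2 rose, where 29.0% of all genes tested fell and 26.7% rose. The CPM ranges did not overlap, with KPC lower, for 32 members, against 33.0% of all genes, and with KPC higher for 2, against 32.3% of all genes. The median log2 fold change was −2.41 over the 38 members and −0.03 over all genes (a difference of 1 on this scale is a factor of 2). In bulk tissue, fewer cells of a type and less RNA per cell cannot be told apart. The labels say no more of the replicates than that they are separate samples, while the methods describe RNA from separate animals. The p-values therefore measure the spread between these animals.

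**Figure D1:**
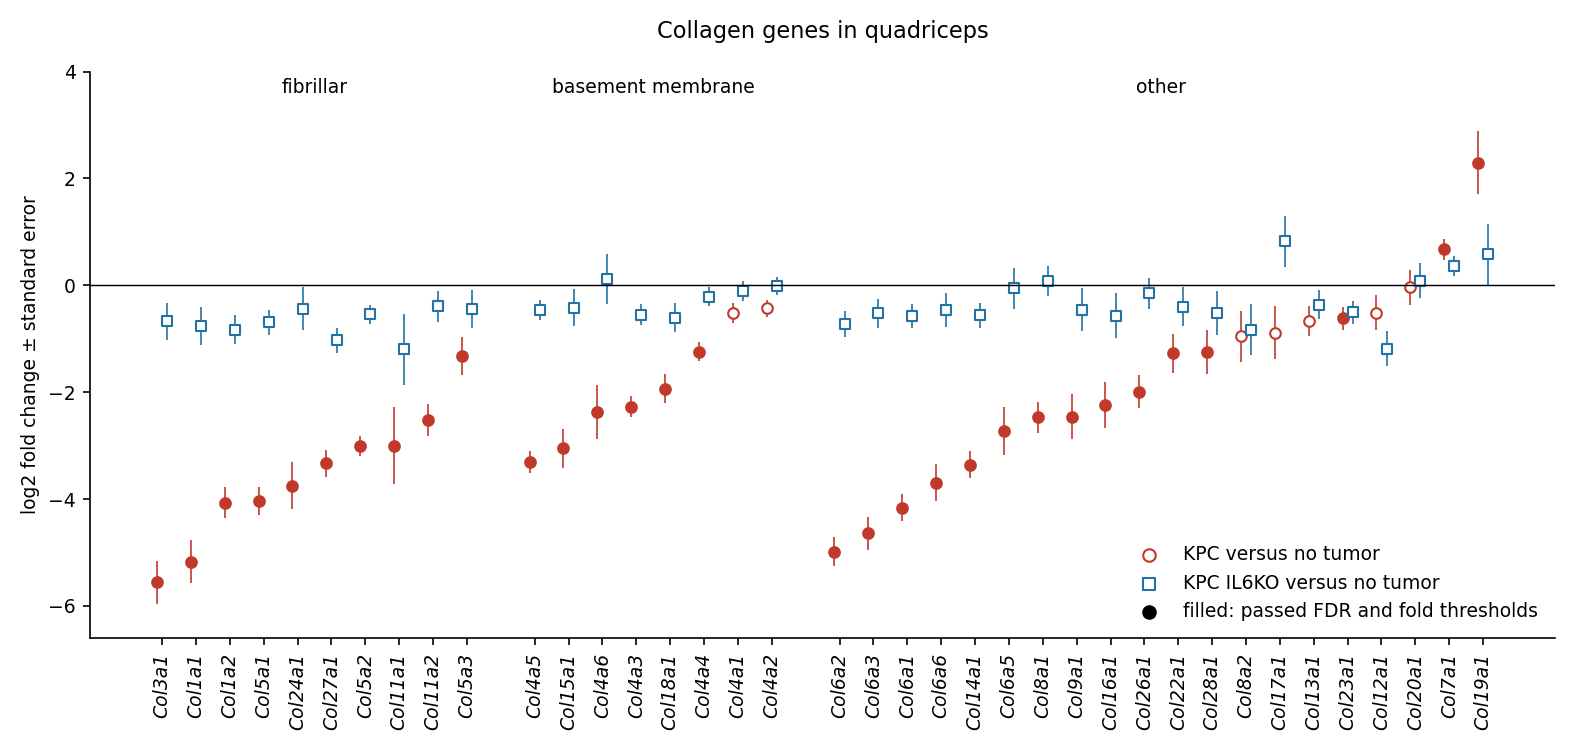
Log2 fold change of each of the 38 collagen genes in quadriceps against no tumor, with its standard error, for KPC (circles) and for KPC IL6KO (squares), grouped by class, with filled symbols for calls. The KPC values of fibrillar and type VI chains lie between −1.33 and −5.56, while those of KPC IL6KO lie between −1.2 and 0.83 over all members.

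All 10 fibrillar chains fell, with a median log2 fold change of −3.54. Col3a1, the single chain of type III collagen, was at 396, 383 and 445 CPM in the no tumor libraries and at 12.8, 12.1, 4.96 and 4.67 CPM in the KPC libraries. It had the largest decrease of the 38 members, by 5.56 ± 0.40 (log2 fold change ± SE) with an FDR of 1.37e-06. Type I collagen, the main protein of tendon and of muscle connective tissue, is made of the products of Col1a1 and Col1a2. Col1a1 was at 218, 230 and 225 CPM without tumor and at 10.3, 6.88, 4.19 and 3.48 CPM with KPC (log2 fold change −5.17 ± 0.40, FDR 1.97e-06). Col1a2 was at 291, 322 and 325 CPM without tumor and at 26.8, 18.6, 13.6 and 15.4 CPM with KPC (log2 fold change −4.07 ± 0.29, FDR 1.37e-06). For all 3 genes the highest KPC library was far below the lowest no tumor library.

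Type V collagen starts fibrils and limits their width. Col5a1 fell from 65.3, 63.7 and 69.0 CPM to 4.91, 4.88, 2.54 and 3.76 CPM (log2 fold change −4.03 ± 0.26, FDR 9.11e-07). Its partner Col5a2 fell from 45.5, 46.9 and 49.8 CPM to 5.87, 6.81, 6.74 and 3.99 CPM (log2 fold change −3.02 ± 0.19, FDR 7.92e-07). The least changed fibrillar chain was Col5a3, the third type V chain, at 67.8, 68.9 and 55.7 CPM without tumor and at 18.7, 23.5, 47.7 and 12.2 CPM with KPC (log2 fold change −1.33 ± 0.36, FDR 0.00596). KPC library 3 was closest to the no tumor range for Col5a3 and next to the lowest for Col1a1 and Col3a1, so the chains did not order the KPC libraries alike. Among the scarce chains, Col24a1 fell from 11.2, 10.7 and 8.66 CPM to between 0.393 and 1.28 CPM (log2 fold change −3.75 ± 0.44, FDR 2.17e-05). Col27a1 fell from 4.64, 6.31 and 4.82 CPM to between 0.311 and 0.736 CPM (log2 fold change −3.33 ± 0.26, FDR 1.89e-06). The type XI chains, best known from cartilage, fell by 3.00 (Col11a1) and 2.52 (Col11a2) on the log2 scale, with Col11a1 at only 2.79 ± 0.75 CPM (SD, n = 3) even without tumor.

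Of the 8 basement membrane chains 6 fell, with a median log2 fold change of −2.10, and KPC was below no tumor without overlap for all 8. Col4a1, which with Col4a2 makes the type IV network of nearly every basement membrane, was at 234, 261 and 226 CPM without tumor and at 200, 148, 128 and 191 CPM with KPC. Its log2 fold change of −0.53 ± 0.19 had an FDR of 0.0258 but was under 1.5-fold, so it was not called. Col4a2 was at 154, 173 and 151 CPM without tumor and at 116, 116, 99.2 and 141 CPM with KPC, and its log2 fold change of −0.43 ± 0.17 (FDR 0.0369) was not called either. Without KPC library 1 or KPC library 4, Col4a1 passed the fold limit, with FDRs of 0.0151 and 0.021.

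The other 4 type IV chains form networks known from a few specialised basement membranes, such as those of kidney and lung. Col4a5 had the largest decrease of the class, from 7.60, 6.62 and 7.48 CPM to 0.770, 0.907, 0.573 and 0.659 CPM (log2 fold change −3.31 ± 0.20, FDR 7.92e-07). Col4a6, its head-to-head neighbour, was scarce, at 0.900, 0.627 and 0.564 CPM without tumor and at 0.169, 0.188, 0.0164 and 0.169 CPM with KPC (log2 fold change −2.37 ± 0.51, FDR 0.0015), where KPC library 3 held 1 count. Col4a4 fell from 3.64, 3.06 and 3.79 CPM to 1.54, 1.51, 1.31 and 1.54 CPM (log2 fold change −1.24 ± 0.18, FDR 9.33e-05). Its neighbour Col4a3 fell by 2.27 on the log2 scale. Col15a1 and Col18a1 are collagens of the outer face of the basement membrane, and the end of the Col18a1 product is the fragment endostatin. Col15a1 fell from 59.7, 60.6 and 50.9 CPM to 5.53, 6.04, 12.1 and 3.91 CPM (log2 fold change −3.05 ± 0.36, FDR 2.54e-05). Col18a1 fell from 19.0, 21.9 and 16.5 CPM to 4.84, 5.84, 2.47 and 6.93 CPM (log2 fold change −1.93 ± 0.28, FDR 8.8e-05). Thus both of these outer chains differed by more than Col4a1 and Col4a2 did.

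All 5 type VI chains fell, with a median log2 fold change of −4.16. The 3 main chains come from Col6a1, Col6a2 and Col6a3, and loss of any of them causes muscle weakness in people and mice. Col6a1 fell from 97.2, 97.2 and 102 CPM to 5.81, 7.82, 4.35 and 4.08 CPM (log2 fold change −4.16 ± 0.25, FDR 7.52e-07). Col6a2 fell from 96.0, 95.8 and 97.6 CPM to 2.49, 4.02, 2.77 and 2.88 CPM (log2 fold change −4.99 ± 0.27), and its FDR of 3.91e-07 was the lowest of any member. Col6a3 fell from 72.4, 74.9 and 71.5 CPM to 2.08, 5.08, 2.5 and 2.03 CPM (log2 fold change −4.64 ± 0.31, FDR 1.11e-06). Each of the 3 was nearly constant among the no tumor libraries. The scarce alternative chains were also lower, Col6a6 going from 9.87, 5.92 and 9.94 CPM to 0.385, 1.2, 0.442 and 0.621 CPM (log2 fold change −3.69 ± 0.35, FDR 5.24e-06). Col6a5 went from 0.381, 0.509 and 0.820 CPM to 0.0616, 0.0514, 0.115 and 0.0941 CPM (log2 fold change −2.73 ± 0.45, FDR 0.000214), with as few as 3 counts in a KPC library.

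Fibril-associated collagens do not form fibrils but sit on their surface. Of the 7 in quadriceps 4 fell and 1 rose. Col14a1, abundant in tendon and muscle connective tissue, fell from 11.8, 14.1 and 14.5 CPM to 1.96, 0.959, 1.19 and 1.11 CPM (log2 fold change −3.36 ± 0.25, FDR 1.58e-06). Col16a1 fell from 10.3, 10.2 and 9.27 CPM to 1.59, 1.34, 0.998 and 4.54 CPM (log2 fold change −2.24 ± 0.43, FDR 0.000685), and Col9a1 and Col22a1, the last a collagen of the muscle-tendon junction, fell by 2.46 and 1.27 on the log2 scale. Col12a1, found in tendon and at sites of mechanical load, was at 8.73, 10.2 and 10.3 CPM without tumor and at 7.56, 4.33, 6.45 and 9.05 CPM with KPC, with an FDR of 0.184. Col20a1 had a log2 fold change of −0.04 ± 0.34. The member that rose was Col19a1, a collagen of muscle and nerve development, at 1.09, 0.823 and 1.08 CPM without tumor and at 6.11, 2.17, 9.64 and 1.54 CPM with KPC (log2 fold change 2.30 ± 0.59, FDR 0.00444). Its groups did not overlap, but KPC libraries 1 and 3 were several times above KPC libraries 2 and 4.

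Among the 3 transmembrane collagens, Col23a1 alone passed the test, at 3.58, 3.45 and 2.56 CPM without tumor and at 1.60, 1.93, 2.41 and 2.45 CPM with KPC (log2 fold change −0.62 ± 0.22, FDR 0.0258). That call was lost under RLE scaling, under the replicate block, with only the 2 groups in the fit, and without no tumor library 1 or 2 or KPC library 1 or 2 (FDR 0.0353 to 0.118). Col13a1, a collagen of the neuromuscular junction, was at 1.16, 1.18 and 0.973 CPM without tumor and at 0.970, 0.616, 0.720 and 0.489 CPM with KPC, with an FDR of 0.0515. It was called lower by edgeR's likelihood ratio test (FDR 0.046) and by its newer quasi-likelihood form (FDR 0.044). The same held with 10 counts required in every library (FDR 0.0329) and without KPC library 1 (FDR 0.0141). Col17a1, a hemidesmosome protein, had an FDR of 0.131.

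Of the 5 short-chain, anchoring and remaining collagens 3 fell and 1 rose. Col8a2, with a log2 fold change of −0.95, was not called. It was called lower with only the 2 groups in the fit (FDR 0.0378). That was also so without KPC library 4 (FDR 0.032) or KPC IL6KO library 2 (FDR 0.0481). Col8a1, a short-chain collagen of vessel walls, fell from 3.48, 3.06 and 2.10 CPM to 0.308, 0.531, 0.507 and 0.753 CPM (log2 fold change −2.47 ± 0.30, FDR 2.59e-05). Col26a1 fell from 1.51, 1.70 and 0.973 CPM to 0.477, 0.359, 0.262 and 0.320 CPM (log2 fold change −1.99 ± 0.31, FDR 0.000147). Col28a1, a collagen of peripheral nerve, fell from 1.07, 1.72 and 0.922 CPM to 0.185, 0.787, 0.475 and 0.678 CPM (log2 fold change −1.25 ± 0.41, FDR 0.0183), a call lost without no tumor library 2 (FDR 0.109) and with only the 2 groups in the fit (FDR 0.0509). Col7a1, which encodes the anchoring fibrils that tie epithelial basement membranes to the matrix beneath, went the other way. It rose from 42.2, 38.0 and 49.3 CPM to 91.6, 73.2, 49.98 and 60.9 CPM (log2 fold change 0.68 ± 0.19, FDR 0.00888), with the lowest KPC library just above the highest no tumor library. Without KPC library 1 the difference was 0.51 with an FDR of 0.021, which is under 1.5-fold, so the call rested on that library.

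**Figure D2:**
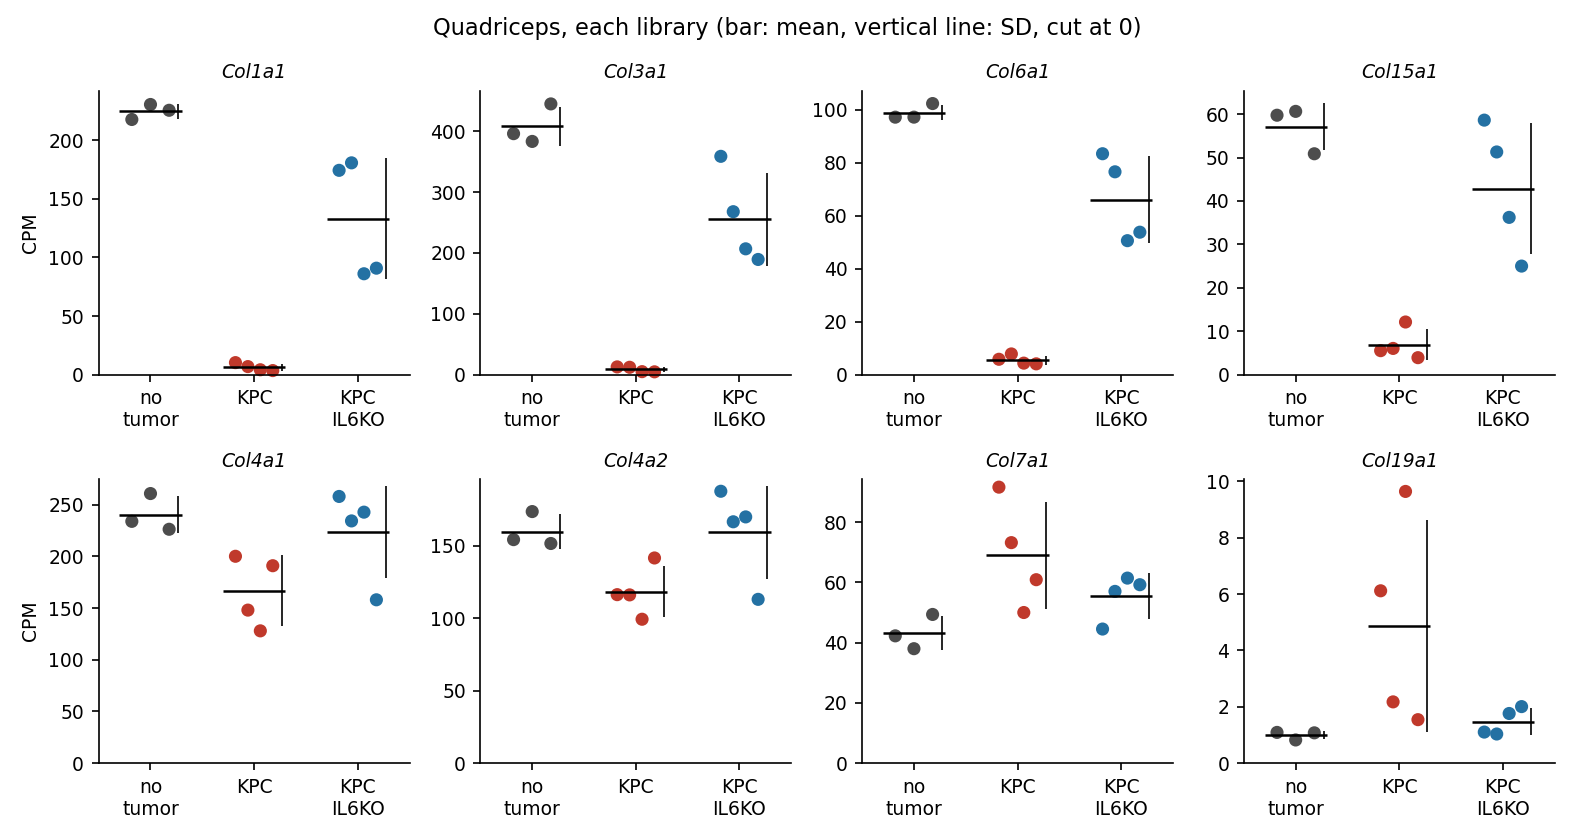
CPM of 8 collagen genes in each quadriceps library, in no tumor (3 libraries), KPC (4) and KPC IL6KO (4). Points are libraries, horizontal lines group means and vertical lines the SD, each panel with its own axis from 0. Col1a1, Col3a1, Col6a1 and Col15a1 are at 12.8 CPM or below in KPC, Col4a1 and Col4a2 sit within 128 to 200 and 99.2 to 141 CPM there, and Col7a1 and Col19a1 are higher in KPC.

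The unequal differences changed which collagens made up the collagen transcripts of quadriceps. The CPM of all 38 members summed to 2063 ± 34.8 (SD, n = 3) without tumor, 499 ± 58.3 (n = 4) with KPC and 1465 ± 344 (n = 4) with KPC IL6KO. Fibrillar chains were 55.7% ± 1.6 (SD) of that sum without tumor, 14.7% ± 4.2 with KPC and 47.5% ± 4.0 with KPC IL6KO. Basement membrane chains were 23.8% ± 1.6 without tumor, 60.0% ± 4.2 with KPC and 31.0% ± 4.5 with KPC IL6KO. Col4a1 and Col4a2 by themselves made up 19.4% of the sum without tumor, 56.9% with KPC and 26.5% with KPC IL6KO. Mean levels were also divided by the length in kilobases of the longest protein-coding transcript of each gene. Without tumor their order was Col3a1 at 73.3, Col1a2 at 58.5, Col1a1 at 37.8, Col4a1 at 36.3 and Col4a2 at 24.8 CPM per kilobase. With KPC it was Col4a1 at 25.2, Col4a2 at 18.3, Col7a1 at 7.45, Col5a3 at 4.17 and Col1a2 at 3.48 CPM per kilobase. The order depends on the length used. With the exons of all transcripts merged, Col1a2 has 12426 bases instead of 5348, and Col3a1 has 9816 instead of 5564. These are descriptions of the libraries, and the capture step named in the labels can shift levels between genes.

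Ratios of counts within a library showed the same contrast. The ratio of Col4a1 to Col4a2, the head-to-head pair, lay between 1.28 and 1.72 over all 11 quadriceps libraries and between 1.27 and 2.10 over the 12 fat libraries. The ratio of Col4a1 to Col1a2 was 0.804, 0.809 and 0.695 without tumor, 7.46, 7.94, 9.41 and 12.4 with KPC, and 1.22, 0.972, 2.11 and 1.16 with KPC IL6KO. No library of one group overlapped another group in this ratio. It restates counts already described above, and how many other pairs of genes separate the groups was not counted. In fat the ratio of Col4a1 to Col1a2 ran from 0.558 to 2.22, with the groups overlapping. The partner chains of types I, V and VI kept their proportions less well in quadriceps than Col4a1 and Col4a2 did. The highest over the lowest library was 3.64-fold for Col1a1 to Col1a2, 3.82-fold for Col5a1 to Col5a2 and 2.30-fold for Col6a1 to Col6a2. It was 1.35-fold for Col4a1 to Col4a2, but 2.76-fold for Col4a3 to Col4a4, which also start head to head. In fat it was 1.66-fold for Col4a1 to Col4a2, 1.34-fold for Col6a1 to Col6a2 and 2.44-fold for Col4a3 to Col4a4. For Col1a1 to Col1a2 it was 2.18-fold there, and for Col5a1 to Col5a2 2.94-fold.

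**Figure D3:**
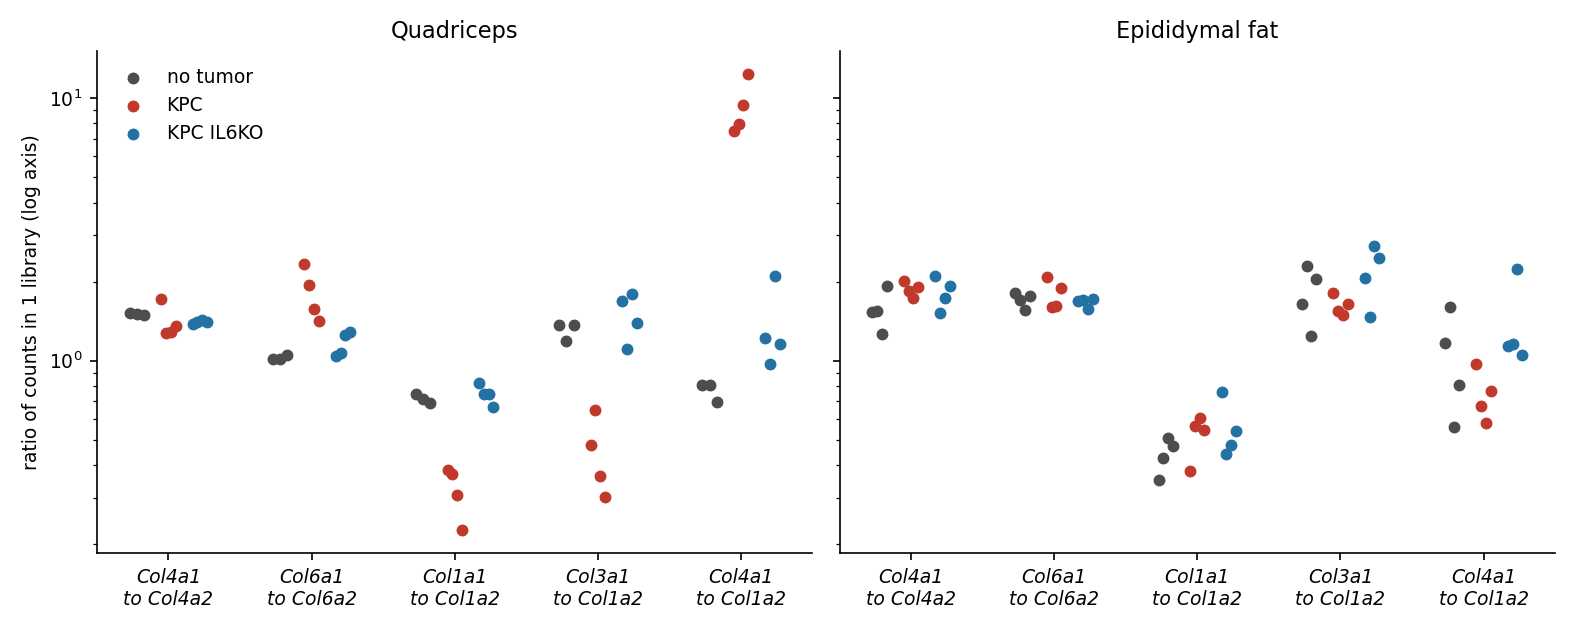
Ratio of counts of pairs of collagen chains in each library of quadriceps and fat, on a log axis, by group. Col4a1 to Col4a2 stays between 1.28 and 1.72 in quadriceps, while Col4a1 to Col1a2 goes from 0.695 to 0.809 without tumor to 7.46 to 12.4 with KPC.

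The second comparison asked whether tumors from cells with the edited Il6 gene came with the same collagen differences in quadriceps. No member passed the quasi-likelihood test against no tumor in either direction, where 0% of all genes were called in either direction. Levels were nonetheless lower than without tumor for 32 of the 38 members, with a median log2 fold change of −0.47 against 0.00 over all genes, and 12 members had an unadjusted p under 0.05, against 6.91% of all genes. KPC IL6KO lay below no tumor without overlap for 14 members, against 8.01% of all genes, and above it for 1, Col17a1, against 7.54% of all genes. edgeR's likelihood ratio test and the DESeq2 Wald test each called 1 member, Col27a1, lower, with log2 fold changes of −1.03 and −1.02 and adjusted p of 0.0116 and 0.00462, where they called 0.546% and 0.514% of all genes lower.

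Col27a1 was at 4.64, 6.31 and 4.82 CPM without tumor and at 2.80, 2.66, 2.17 and 2.66 CPM with KPC IL6KO. Col1a1 was at 174, 181, 86.0 and 90.8 CPM with KPC IL6KO, below the 218 CPM of the lowest no tumor library, with a log2 fold change of −0.76 ± 0.35 and an FDR of 0.744. Col1a2 was at 212, 241, 115 and 136 CPM (log2 fold change −0.83 ± 0.27, FDR 0.478), and Col3a1 at 359, 268, 207 and 189 CPM (log2 fold change −0.67 ± 0.34, FDR 0.799). All 4 KPC IL6KO libraries were below all 3 no tumor libraries for these fibrillar genes, and replicates 3 and 4 were the lower pair for each of the 3 genes of types I and III. Col5a1 was at 53.3, 47.9, 29.2 and 32.8 CPM and Col5a2 at 40.2, 33.6, 28.1 and 28.5 CPM. Type VI chains were split in the same way, Col6a1 being at 83.4, 76.5, 50.6 and 53.8 CPM, Col6a2 at 79.9, 71.6, 40.3 and 41.7 CPM and Col6a3 at 64.8, 55.0, 42.5 and 40.4 CPM. With replicates 3 and 4 left out together, a choice made after seeing the data, the median over the members was −0.27, and 2 members had an unadjusted p under 0.05, against 2.91% of all genes.

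Of the 8 basement membrane chains 3, Col4a3, Col4a5 and Col18a1, lay below no tumor without overlap, against 6 of the 10 fibrillar chains and 8.01% of all genes. An unadjusted p under 0.05 was found for 37.5% of the class and 40.0% of fibrillar chains, against 6.91% of all genes. Col4a1 was at 258, 234, 243 and 158 CPM with KPC IL6KO and Col4a2 at 187, 166, 170 and 113 CPM, with 3 of 4 libraries within or above the no tumor range for both genes. Col15a1 was at 58.6, 51.3, 36.2 and 25 CPM and Col18a1 at 14.5, 14.3, 10.9 and 10.7 CPM. Of the 2 members that rose with KPC, Col7a1 was at 44.5, 57.0, 61.4 and 59.2 CPM, overlapping no tumor, with an FDR of 0.823, and Col19a1 was at 1.10, 1.03, 1.76 and 2.01 CPM. The fibril-associated chain Col12a1 had the largest difference among the other types, at 4.2, 7.05, 2.25 and 3.70 CPM against 8.73 to 10.3 CPM without tumor (log2 fold change −1.18 ± 0.33, FDR 0.354).

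Set directly against each other, KPC was below KPC IL6KO for 28 of the 38 members, where 27.3% of all genes were called lower, and above it for 1, Col19a1 (log2 fold change 1.72 ± 0.50, FDR 0.00928), where 26.4% were called higher. The ranges did not overlap, with KPC lower, for 25 members, against 30.8% of all genes. This comparison shares its KPC libraries with the first one, so the values are given side by side and not as separate support. All 10 fibrillar and all 5 type VI chains were called, with log2 fold changes of −4.89 ± 0.38 for Col3a1 (FDR 1.69e-06), −4.42 ± 0.38 for Col1a1 (FDR 3.05e-06) and −4.26 ± 0.26 for Col6a2 (FDR 6.72e-07). Col4a1 and Col4a2 had log2 fold changes of −0.42 ± 0.17 (FDR 0.0494) and −0.43 ± 0.16 (FDR 0.0283), under 1.5-fold. Col7a1 differed between the tumor groups by 0.31 ± 0.18 with an FDR of 0.137. The calls of Col5a3, Col11a1 and Col22a1 were lost in 5 or 6 alternatives each, with FDRs up to 0.0885, 0.138 and 0.144.

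Genes that act on collagen were described from lists for each step, and their counts stand beside the 29.0% of all genes that fell and the 26.7% that rose in this comparison. Of 23 genes for chain processing and secretion in quadriceps, 13 (56.5%) fell and 5 (21.7%) rose with KPC. Serpinh1, the collagen chaperone, went from 77.7 to 14.3 CPM on average (log2 fold change −2.44 ± 0.19, FDR 1.82e-06). Pcolce, which speeds the removal of the C-terminal propeptide, had the largest decrease of the list (log2 fold change −3.67 ± 0.18, FDR 2.26e-07), and Bmp1, the protease it aids, fell by 2.10. Adamts2, which cuts off the N-terminal propeptide, rose from 25.6 to 147 CPM on average (log2 fold change 2.52 ± 0.57, FDR 0.00209). P4hb, a subunit of prolyl hydroxylase and a general disulfide isomerase with the highest mean level of the list, rose by 1.03, and Mia3, which serves export of large cargo from the endoplasmic reticulum, by 1.27. The prolyl hydroxylase subunits P4ha1 and P4ha2, which act on collagen in particular, fell by 1.09 and 0.76.

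Of 5 crosslinking enzymes 3 fell and 1 rose. Loxl2 fell by 2.79 ± 0.21 on the log2 scale (FDR 1.58e-06), whereas Lox rose by 1.32 ± 0.33 (FDR 0.0038), from 7.16 to 17.7 CPM on average. Among 10 genes of collagen breakdown 6 fell and 1 rose. The gelatinase Mmp2, with the highest mean level, fell by 1.15, Mmp15 had the largest decrease (log2 fold change −3.53 ± 0.30, FDR 3e-06), and Mmp11 rose by 1.77 ± 0.34 (FDR 0.000664). Of 4 inhibitors of these proteases, Timp1 and Timp2 fell, and Timp3, the one with the highest mean level, was at 143 CPM without tumor and 123 CPM with KPC (FDR 0.21).

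Of 6 collagen receptor genes 3 fell. Itga11, the collagen-binding integrin chain of fibroblasts, fell by 3.10 ± 0.19 (FDR 7.92e-07), Ddr2 by 2.02 and Itga1 by 0.98, while Itgb1, their shared partner chain, was at 148 CPM without tumor and 153 CPM with KPC. Of 11 basement membrane partners 6 fell and 1 rose. Sparc, a collagen-binding protein with the highest mean level of the list, went from 396 to 171 CPM (log2 fold change −1.21 ± 0.16, FDR 5.96e-05), Lama4 had the largest decrease, by 2.19, and Lama5 rose by 1.18 ± 0.34 (FDR 0.00859). The laminin chains of the muscle fiber itself, Lama2 and Lamc1, had FDRs of 0.156 and 0.298. Of 12 regulators of fibrosis 5 fell and 3 rose, against 29.0% and 26.7% of all genes. Tgfb1, the main inducer of collagen genes, fell by 1.03 ± 0.16 (FDR 0.000169) and Smad3, its transcription factor with the highest mean level of the list, by 2.02. Pdgfb had the largest decrease, by 2.10, and the receptor gene Tgfbr1 the largest increase, by 1.66 ± 0.23 (FDR 8.37e-05), with the inhibitor Smad7 rising by 1.46. With KPC IL6KO, 0 genes of these 7 lists were called against no tumor by the quasi-likelihood test, the likelihood ratio test or DESeq2, while 6 of the 23 processing genes, 1 of the 5 crosslinking enzymes, 2 of the 10 breakdown genes, 1 of the 4 inhibitors, 0 of the 6 receptors, 4 of the 11 partners and 2 of the 12 regulators had an unadjusted p under 0.05, against 6.91% of all genes.

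Markers of cell types in quadriceps are given beside the collagen values. Of 9 fibroblast markers 7 fell with KPC, where 29.0% of all genes did, and their summed level was 1849 to 2264 CPM without tumor, 658 to 1067 CPM with KPC and 1209 to 1801 CPM with KPC IL6KO. Of 7 tendon cell markers 6 fell, and their summed level was 191 to 246 CPM, 20.6 to 82.3 CPM and 62.1 to 231 CPM in the same order. Log2 fold changes of the 7 tendon cell markers ran from −6.43 to −1.44. Of these markers, Tnmd and Kera had means of 4.95 and 6.74 CPM without tumor and of 0.206 and 0.078 CPM with KPC. All 4 smooth muscle markers fell as well. Of 4 satellite cell markers 3 fell, with summed levels of 9.76 to 10.8, 3.48 to 4.52 and 8.98 to 9.59 CPM, and of 5 Schwann cell markers 3 fell, with summed levels of 65.8 to 129.5, 22.4 to 71.5 and 44.0 to 59.5 CPM. All 3 neutrophil markers rose, from 0.359 to 0.658 CPM in sum to 3.76 to 20.3 CPM with KPC, and were at 2.05 to 3.74 CPM with KPC IL6KO. Endothelial markers fell in 2 of 7 cases, a share of 28.6% and so that of all genes, with summed levels of 238 to 321, 200 to 333 and 286 to 369 CPM. Among 7 muscle fiber markers 2 fell, among 5 macrophage markers 2 fell and 1 rose, and among 6 adipocyte markers 1 fell and 1 rose. The part of these cells in the collagen differences was not tested.

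In epididymal fat the comparison of KPC with no tumor gave another picture, with wide spread between pads. No member was called by the quasi-likelihood test in either direction, where 0% of all genes were called, and 6 of 39 members had an unadjusted p under 0.05, against 12.2% of all genes. KPC lay above no tumor without overlap for 3 members (7.69%), Col1a1, Col1a2 and Col5a2, which was near the 6.52% of all genes. It lay below no tumor without overlap for 1 member (2.56%), Col14a1, against 4.39% of all genes. Separation was thus about as common among the members as among all genes. The median log2 fold change was 1.13 over 11 fibrillar chains, −0.05 over 8 basement membrane chains and −0.48 over 20 other chains, with 0.02 over all members and −0.10 over all genes. edgeR's likelihood ratio test and DESeq2 each called 1 member, Col14a1, lower, where they called 0.855% and 1.30% of all genes lower.

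Col1a1 was at 62.4, 223, 98.3 and 217 CPM in no tumor pads 5 to 8 and at 524, 785, 500 and 347 CPM in KPC pads 5 to 8 (log2 fold change 1.84 ± 0.60, FDR 0.285). Col1a2 was at 178, 524, 194 and 459 CPM without tumor and at 1375, 1392, 826 and 639 CPM with KPC (log2 fold change 1.64 ± 0.53, FDR 0.284). Col5a2 was at 42.1, 143, 22.6 and 81.7 CPM without tumor and at 402, 344, 179 and 174 CPM with KPC (log2 fold change 1.92 ± 0.65, FDR 0.298). For each of these genes the KPC pads were all above the no tumor pads, and no tumor pads 5 and 7 were the lower pair. The fourth abundant fibrillar gene, Col3a1, overlapped, at 292, 1205, 242 and 936 CPM against 2477, 2146, 1229 and 1053 CPM (log2 fold change 1.37 ± 0.67, FDR 0.447). Col5a1 also overlapped, at 36.3, 156, 28.4 and 66.4 CPM against 171, 228, 124 and 105 CPM, while Col5a3 was far above the rest in no tumor pad 6, at 433 CPM, and between 26.1 and 71.8 CPM in the other no tumor and the KPC pads.

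The basement membrane chains overlapped in every case. Col4a1 was at 208, 841, 109 and 372 CPM without tumor and at 1330, 933, 479 and 489 CPM with KPC (log2 fold change 1.08 ± 0.65, FDR 0.556), and Col4a2 at 136, 546, 85.6 and 193 CPM against 660, 509, 277 and 256 CPM. Col15a1 was at 78.5, 456, 35.9 and 103 CPM without tumor and at 112, 143, 89.5 and 81.6 CPM with KPC. Col18a1 was at 159, 258, 152 and 128 CPM and at 201, 201, 219 and 298 CPM. For Col15a1, as for Col5a3, no tumor pad 6 stood far above every KPC pad. The least certain members were those with few counts, such as Col2a1, a cartilage collagen that had 0 counts in KPC IL6KO pad 5, which allows a level of up to 0.0736 CPM (3 counts, counting error only).

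Among the other types, the abundant type VI chains did not separate, Col6a1 being at 116, 407, 101 and 241 CPM without tumor and at 231, 306, 195 and 175 CPM with KPC (log2 fold change 0.07 ± 0.49, FDR 0.968). Col6a2 was at 63.8, 239, 65.0 and 137 CPM against 111, 191, 120 and 92.4 CPM, and Col6a3 at 44.2, 154, 29.6 and 99.0 CPM against 76.8, 166, 95.8 and 88.5 CPM. Col14a1 was the one member with KPC pads entirely lower, at 50.4, 75.7, 41.6 and 70.8 CPM without tumor and at 12.9, 32.0, 32.2 and 27.5 CPM with KPC (log2 fold change −1.19 ± 0.31, FDR 0.225, with adjusted p of 0.0353 by the likelihood ratio test and 0.0196 by DESeq2). Col13a1 was at 1.72, 1.00, 2.56 and 0.885 CPM without tumor and 6.6, 4.84, 1.68 and 1.98 CPM with KPC, and Col26a1 had the most negative log2 fold change of the members at −1.65 ± 1.05, with FDRs of 0.387 and 0.58. The type VI chain Col6a4 was high in the same pads as Gpx5, at 561 and 269 CPM in no tumor pads 5 and 7 and at 1.76 and 6.69 CPM in pads 6 and 8. It was at 35.3, 155, 117 and 81.5 CPM in the KPC pads, which all had Gpx5 above 1000 CPM, and at 389 CPM in KPC IL6KO pad 6 against 1.01, 3.33 and 2.48 CPM in pads 5, 7 and 8.

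**Figure D4:**
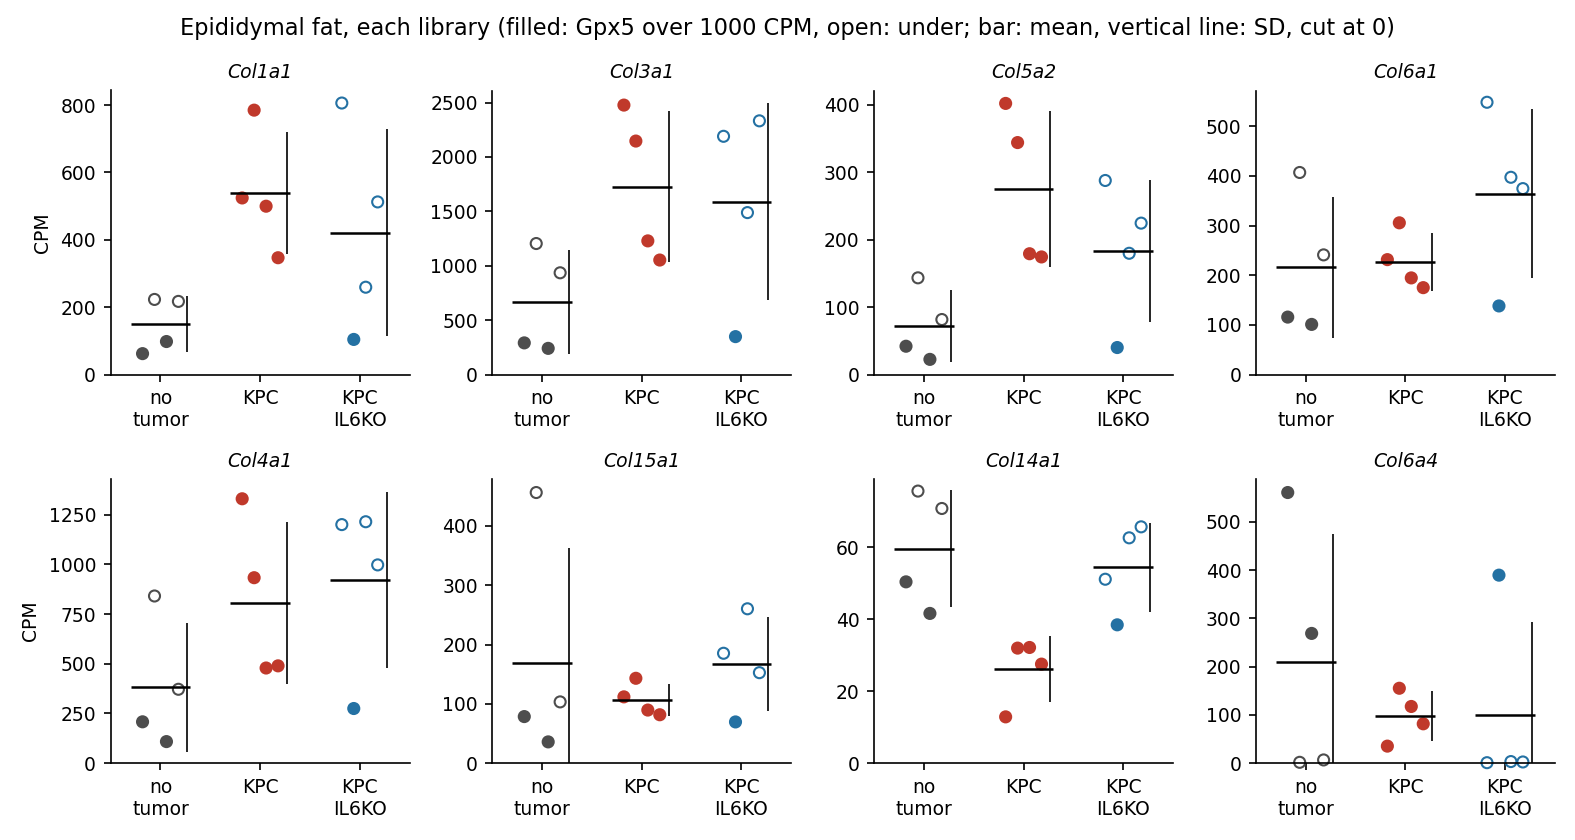
CPM of 8 collagen genes in each fat library, by group of 4 pads. Filled points are pads with Gpx5 above 1000 CPM, open points the others, horizontal lines group means and vertical lines the SD, drawn no lower than 0. KPC pads are above no tumor pads for Col1a1 and Col5a2 and below them for Col14a1, and Col6a4 is over 35 CPM in the filled pads only.

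Since epididymal transcripts differed between the pads, the test in fat was repeated with them taken into account. With the log2 of the summed CPM of 10 epididymis genes as a covariate, 3 members were called higher in KPC than in no tumor, where 1.57% of all genes were, namely Col1a1 (log2 fold change 2.25, FDR 0.0258), Col1a2 (1.96, FDR 0.0366) and Col5a2 (2.37, FDR 0.0411). In the same fit 1 member, Col4a3 (log2 fold change −1.48, FDR 0.0499), was called lower, where 0.147% of all genes were. In a fit chosen after seeing the data, restricted to pads with Gpx5 above 1000 CPM, all 4 KPC pads were set against no tumor pads 5 and 7, and 5 members were called higher, where 2.04% of all genes were. These were Col1a1 (log2 fold change 2.82), Col1a2 (2.58), Col3a1 (2.78), Col5a1 (2.37) and Col5a2 (3.18), with FDRs of 0.0336 to 0.0353, all genes of fibrillar types I, III and V. For each of these genes, no tumor pads 5 and 7 were the lower pair of the no tumor pads. The fit left out the higher pair, so its calls are not separate support for a rise. The median over the 39 members was 0.65 in that fit and 0.01 over all genes. The summed fibroblast markers were at 1857 to 14056 CPM without tumor and at 1572 to 2787 CPM with KPC, those of macrophages at 103 to 383 and 408 to 868 CPM, those of mesothelium, the lining of the pad, at 209 to 395 and 325 to 708 CPM, and those of smooth muscle at 463 to 4995 and 153 to 341 CPM. Summed neutrophil markers were at 2.74 to 6.02 CPM without tumor and at 20.3 to 42.2 CPM with KPC, those of adipocytes at 1027 to 17383 and 1242 to 3911 CPM, those of tendon cells at 68.1 to 78.0 and 26.3 to 55.7 CPM, and those of skeletal muscle fibers at 8.86 to 272 and 2.16 to 5.16 CPM. Those of pancreas and stomach epithelium, 3 of whose 8 genes were in the table, were at 7.86 to 17.96 and 17.4 to 81.1 CPM. The part of these cells in the collagen values was not tested.

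No member was called between KPC IL6KO and no tumor in fat, where 0% of all genes were, 2 of 39 had an unadjusted p under 0.05 (Col1a1 and Col11a2), against 9.34% of all genes, the likelihood ratio test and DESeq2 called 0, and 0 members separated without overlap, against 1.52% of all genes higher and 0.489% lower. Col1a1 was at 806, 105, 259 and 512 CPM in KPC IL6KO pads 5 to 8, Col3a1 at 2190, 350, 1489 and 2332 CPM and Col4a1 at 1200, 275, 1214 and 997 CPM, with pad 6 the lowest each time. Pad 6 was the only KPC IL6KO pad with Gpx5 above 1000 CPM. In KPC IL6KO pads, summed markers were at 2485 to 8999 CPM for fibroblasts, 188 to 1016 for macrophages and 213 to 1370 for mesothelium. Those of smooth muscle were at 340 to 4558 CPM, of adipocytes at 3004 to 11615 and of skeletal muscle fibers at 93.7 to 2417. Those of neutrophils were at 4.11 to 58.6 CPM, of tendon cells at 45.3 to 93.9 and of pancreas and stomach epithelium at 7.65 to 57.6. Their part in the collagen values was not tested. The median log2 fold change over the 39 members was 0.43, and it was 0.17 with the epididymis covariate, where 0 members had an unadjusted p under 0.05, against 3.37% of all genes. In pads with Gpx5 below 1000 CPM, a choice made after seeing the data, it was 0.28 and 2 members had an unadjusted p under 0.05, against 4.51% of all genes. Between KPC and KPC IL6KO no member was called in fat, where 0% of all genes were, 3 had an unadjusted p under 0.05, against 6.26% of all genes, the likelihood ratio test and DESeq2 called 0, and 1, Col14a1, lay lower in KPC without overlap, against 3.69% of all genes. Col14a1 was at 51.1, 38.5, 62.7 and 65.7 CPM with KPC IL6KO (log2 fold change of KPC against it −1.06 ± 0.31, FDR 0.664). The median over the members of this comparison was −0.37, and with the epididymis covariate it turned to 0.11, with 0 members called and 9 at an unadjusted p under 0.05, against 8.18% of all genes. Of the 7 lists of genes acting on collagen, none had a call in fat by the quasi-likelihood test with KPC. An unadjusted p under 0.05 was found for 3 of 24 processing genes, 2 of 5 crosslinking enzymes, 5 of 12 breakdown genes, 2 of 4 inhibitors, 3 of 8 receptors, 2 of 12 partners and 1 of 12 regulators, against 12.2% of all genes, so that the processing genes, at 12.5%, were at that share. The likelihood ratio test called 1, 1, 3, 1, 1, 1 and 0 of them in the same order, and DESeq2 called 1, 1, 3, 1, 3, 1 and 0, where they called 1.58% and 2.15% of all genes higher and 0.855% and 1.30% lower. Lox was at 24.96 CPM without tumor and 125 CPM with KPC on average in fat (log2 fold change 2.32, FDR 0.255).

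The change with KPC was then compared between the tissues for the 36 members in both tables, in a single edgeR fit over all 23 libraries with the difference of the changes called at an FDR of at most 0.05. The change was more negative in quadriceps than in fat for 22 members, where 19.3% of 12599 genes were, and more positive for 1, Col7a1, where 19.2% were. The tissues came from separate mice and were prepared at different times, but each change was taken within its tissue. The largest differences were those of Col1a1 (−7.11 ± 0.81, FDR 3.63e-06), with log2 fold changes of −5.17 in quadriceps and 1.84 in fat, and Col3a1 (−7.02 ± 0.85), with −5.56 and 1.37. Col1a2 differed by −5.81 ± 0.66 and Col5a2 by −5.04 ± 0.74. The type VI chains differed by −2.76 (Col6a5) to −5.12 (Col6a2), with log2 fold changes in fat between −0.87 and 0.38.

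Of the 8 basement membrane chains 4 differed between the tissues, Col4a5 by −3.51 ± 0.41, Col15a1 by −2.5 ± 0.82, Col18a1 by −2.44 ± 0.52 and Col4a6 by −2.27 ± 0.73, the last lost without no tumor quadriceps library 1 (FDR 0.0594). Col4a1 and Col4a2 differed by −1.71 ± 0.72 (FDR 0.0672) and −1.37 ± 0.66 (FDR 0.108), and both passed without no tumor fat pad 6, which brought the count from 22 to 24. Both also passed with the epididymis covariate in fat, a fit chosen after seeing the data (Col4a1 −2.15, FDR 0.00672, and Col4a2 −1.72, FDR 0.0196), in which 24 members were called more negative in quadriceps and 1 more positive, where 24.3% and 21.6% of all genes were. Col4a1 alone of the pair passed by the likelihood ratio test (FDR 0.0459), by DESeq2 (0.0487) and without KPC IL6KO fat pad 6 (0.0371). The calls of 2 scarce chains were lost, that of Col8a1 without no tumor quadriceps library 1 (FDR 0.0538) or KPC fat pad 8 (FDR 0.0501) and that of Col28a1 without no tumor quadriceps library 2 (FDR 0.0528). Col14a1 fell in quadriceps and was lower in KPC fat pads too, and its change still differed between the tissues by −2.28 ± 0.42. Col7a1 differed by 1.5 ± 0.52 (FDR 0.0282), with log2 fold changes of 0.68 in quadriceps and −0.95 in fat, a call lost without no tumor quadriceps library 1 or 2, KPC quadriceps library 1, or no tumor fat pad 5 or 7 (FDR 0.0524 to 0.069). Members whose change did not pass included Col5a3 (0.15 ± 0.95), Col12a1 (−0.06 ± 0.53), Col22a1 (0.04 ± 1.56) and Col4a4 (0.13 ± 0.83), where the standard errors leave room for sizeable differences. For the change with KPC IL6KO, 0 of the 36 members were called more negative in quadriceps by the quasi-likelihood test, where 0% of all genes were, with 12 at an unadjusted p under 0.05, against 7.96% of all genes, and 0 called by the likelihood ratio test or DESeq2.

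**Figure D5:**
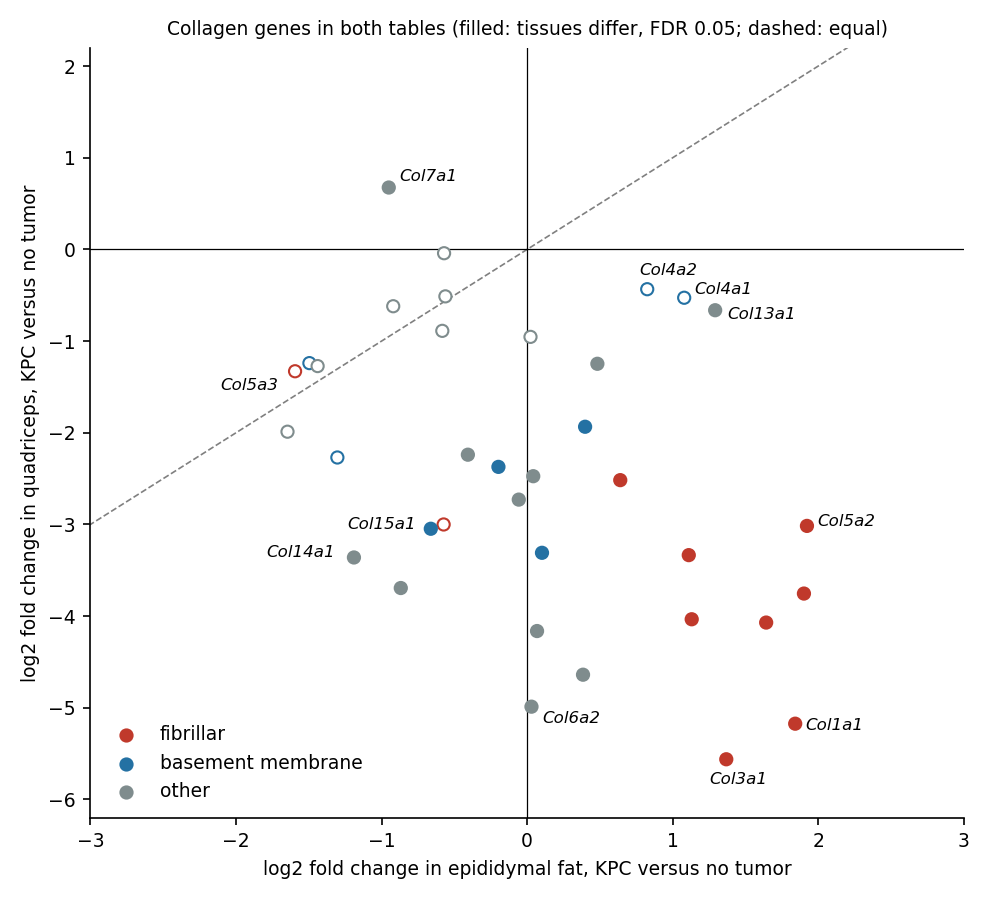
Log2 fold change of KPC against no tumor in fat (horizontal axis) and in quadriceps (vertical axis) for the 36 collagen genes in both tables, colored by class, with a dashed line where both changes are equal. Filled points are the 23 genes whose change differed between the tissues at an FDR of at most 0.05, and the fibrillar genes of types I and III lie at the lower right, under −4 in quadriceps and above 1.3 in fat.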

How the data were processed

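RNA was isolated from quadriceps muscle (11 libraries) and epididymal fat (12 libraries) and sequenced as paired-end strand-specific libraries, the tissues at different times. The library kits are named differently in the labels and in the methods, and the labels name a kit with an exome capture step. The authors aligned reads to mm10 with STAR and assigned uniquely mapped reads to genes with featureCounts 1.5.1 (Subread), per the labels, and deposited raw counts per gene symbol. Whether counting used strand is not given in the sources used here, so reads in the 22 bases shared by Col4a1 and Col4a2 may be split between them. The deposited tables lack genes with few counts, by a rule not stated. The authors removed 1 no tumor muscle library as an outlier, which was not analysed here. The full genotype of the tumor cell line is not reported here.

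Counts were fitted per tissue over all 3 groups with edgeR 4.0.16 (TMM scaling, quasi-likelihood F test) in R 4.3.3, p-values were adjusted by the Benjamini-Hochberg procedure over the whole table, and a call needed an FDR of at most 0.05 and a change of at least 1.5-fold. filterByExpr removed 0 genes. The difference between tissues was an interaction term over 23 libraries. CPM per library used the TMM scaling. The procedure was also run on simulated counts with known changes, whose outcome is not given here. DESeq2 1.42.0, edgeR's likelihood ratio test, its newer quasi-likelihood form, RLE scaling, filters on low counts, fits of only the groups compared, the replicate number as a block, an epididymis covariate and leaving out libraries were alternatives. Coordinates are of mm10, all 41 symbols matched the annotation, and promoter sequences and starts are from RefSeq on GRCm38.p6. Replicate numbers did not pair the libraries. A count of 3 was the limit below which a value was not told apart from 0.

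The members and lists were chosen with earlier results of these data known. Values in every library are given for the 14 abundant chains, the largest rise and fall of each class in each tissue, any member called with KPC IL6KO, and members whose change differed between tissues, and in the gene lists the most abundant gene and the largest called rise and fall are named, with others named after their values were seen.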

Additional observations from a re-analysis of the deposited data

Results flagged for a closer look

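Among 147 groups of 4 libraries examined for the members named with values in every library, 13 had a library far from the other 3. Chance gives about 1 in 20 for independent and normally distributed values. Values of different members in the same library are not independent, so the 13 are listed and not read as an excess. In quadriceps these were Col6a3 in KPC 2 at 5.08 CPM (others 2.03 to 2.5), Col4a4 in KPC 3 at 1.31 CPM (others 1.51 to 1.54), Col4a6 in KPC 3 at 0.0164 CPM (others 0.169 to 0.188), Col16a1 in KPC 4 at 4.54 CPM (others 0.998 to 1.59) and Col14a1 in KPC IL6KO 1 at 12.2 CPM (others 7.80 to 8.30). In fat, no tumor pad 6 was far above the others for Col15a1 at 456 CPM (others 35.9 to 103) and Col5a3 at 433 CPM (others 26.1 to 67.5). KPC pad 8 was low for Col11a2 at 1.66 CPM (others 2.64 to 2.74), and KPC pad 6 was high for Col24a1 at 16.8 CPM (others 5.96 to 6.70). KPC IL6KO pad 5 was high for Col27a1 at 64.3 CPM (others 12.8 to 20.8) and for Col8a1 at 58.2 CPM (others 5.79 to 12.99), pad 6 for Col13a1 at 2.67 CPM (others 1.2 to 1.38) and pad 8 for Col4a6 at 65.5 CPM (others 17.97 to 20.4).

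For 23 members the change from no tumor to KPC differed between quadriceps and fat by the test of the difference itself. The log2 difference, quadriceps minus fat, was −7.11 for Col1a1, −7.02 for Col3a1, −5.81 for Col1a2, −5.68 for Col24a1, −5.27 for Col5a1, −5.04 for Col5a2, −4.55 for Col27a1 and −3.25 for Col11a2 among fibrillar chains. It was −5.12 for Col6a2, −5.12 for Col6a3, −4.33 for Col6a1, −2.93 for Col6a6 and −2.76 for Col6a5 among type VI chains, and −3.51 for Col4a5, −2.5 for Col15a1, −2.44 for Col18a1 and −2.27 for Col4a6 among basement membrane chains. Of the remaining chains it was −2.60 for Col8a1, −2.28 for Col14a1, −2.06 for Col13a1, −1.96 for Col16a1, −1.83 for Col28a1 and 1.5 for Col7a1.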

How the results depend on the processing

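Between KPC and no tumor in quadriceps, 27 to 31 members were lower and 1 to 2 higher when each library was left out in turn, and between KPC and KPC IL6KO 25 to 28 were lower and 1 to 2 higher. DESeq2 called 2 members higher in KPC than in KPC IL6KO, adding Col12a1 (log2 fold change 0.69, adjusted p 0.0413). Against no tumor, KPC IL6KO quadriceps had 1 member lower by DESeq2 and 1 by the likelihood ratio test, and 0 when any library was left out. In fat, KPC against no tumor had 1 member lower by DESeq2, 1 by the likelihood ratio test and 1 with the epididymis covariate, 3 higher with that covariate, 5 higher in pads with Gpx5 above 1000 CPM, and 0 in either direction when any library was left out. The fit in pads with Gpx5 above 1000 CPM kept the no tumor pads that were lower for the genes called. The change with KPC was more negative in quadriceps than in fat for 20 to 24 members and more positive for 0 to 1 when a library was left out, and for 24 and 1 with the epididymis covariate in fat. With at least 10 counts required in every library, 33 quadriceps members were tested, of which 26 were lower and 2 higher with KPC. No value of a called member changed sign under any alternative run, and the causes of the lost and gained calls were not tested.

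Correlations of the deviations of same-numbered libraries ran from −0.17 to 0.27 in quadriceps and from −0.59 to 0.55 in fat, where they were 0.21, 0.47, 0.55 and −0.01 between KPC and KPC IL6KO. No comparison had every correlation over 0.1, so the numbers were not taken to pair the samples. With the replicate block, 28 members were lower and 2 higher between KPC and no tumor in quadriceps, 0 were called between KPC IL6KO and no tumor, 28 were lower and 1 higher between KPC and KPC IL6KO, and 0 were called in fat.

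The common biological coefficient of variation was 63.5% in fat and 22.7% in quadriceps. How far spread or depth limited the calls of the collagen genes was not tested.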
